A study of Bos taurus with 2 samples.

Results

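The 8 tetraspanin genes CD9, CD63, CD81, CD82, CD151, TSPAN3, TSPAN4 and TSPAN9 were described in cultured bovine satellite cells. They are 8 of the 21867 genes in the feature list of the series, of which 16816 had at least 1 unique molecular identifier (UMI, a tag that marks 1 captured RNA molecule). The 8 genes were chosen by their measured levels over the 15 cell clusters of these same data, so their differences between clusters are given as descriptions, with no test. The cells were satellite cells, the muscle precursor cells of postnatal muscle, taken from the longissimus muscle of 1 male Holstein calf at 2 weeks of age. They had been isolated by pronase digestion and differential centrifugation and kept for a week in growth medium of DMEM with 10% FBS, with no treatment, no sorting and no second animal. A pair of single-cell RNA sequencing libraries, replicates 1 and 2, was made from the same cells with a 10x Genomics 3′ kit to raise the number of cells, and they hold 9939 and 9157 cells. An SD over n = 2 libraries therefore measures the spread between technical replicates of 1 culture and not between animals.

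Tetraspanins are small proteins that cross the membrane at 4 places and assemble with each other and with partner proteins such as integrins, immunoglobulin superfamily proteins and proteases into membrane microdomains. CD63 cycles through late endosomes and lysosomes, and CD63, CD81 and CD9 are widely used as markers of extracellular vesicles. In muscle, CD9 and CD81 are known for a part in myoblast fusion and in muscle repair, and CD82 is known as a surface marker of human muscle stem cells.

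A level is the sum of a gene's UMIs in a cluster's cells of 1 library, per 10000 UMIs of all genes. The 15 clusters are those deposited by the authors. The study named clusters 4, 5 and 8 satellite cells, clusters 1 and 2 myoblasts, clusters 3 and 12 myocytes, and clusters 7 and 9 fibro-adipogenic progenitors (FAP, the precursors of fat and connective tissue cells in muscle), and left the other 6 undefined. The libraries held 145631299 and 137818568 UMIs and shared 27 cell barcodes. The median cell of 11 clusters had between 5398.5 and 23011 UMIs, and these are called the deeper clusters. Cluster 10 was the shallowest of them, at 5398.5, and the next, cluster 1, had 12929. The low CD9 and CD63 of cluster 10 given below are therefore not matched in depth to the rest. In the other 4, clusters 7, 13, 14 and 15, the median cell had between 647 and 2513.5 UMIs. The label satellite cell was carried by few transcripts: PAX7, the defining transcription factor of the quiescent cell, had 176 UMIs in all cells and PAX3 had 316, against 114882 for the myoblast factor MYOD1. MYOG, MYH3 and MYMK, genes of differentiating muscle, were highest in cluster 12, and PDGFRA, the FAP marker, was highest in clusters 9 and 7. Cluster 7 also held muscle transcripts, with MYH3 at 4.74 and MYMK at 0.593 per 10000, each the highest after cluster 12. In cluster 9 these genes stood at 0.125 and 0.014. MYOG did not share that rank, since its 1.752 in cluster 7 was below the 6.681 of cluster 3 and the 3.997 of cluster 15. The muscle genes MYL1, at 0.1563, and STAC3, at 0.4214, were also lower in cluster 7 than in cluster 3, at 0.2819 and 0.4375. Of the markers of other cells, CDH5 and PECAM1 of endothelium had 28 and 45 UMIs, PTPRC of leukocytes 1, and SOX10 and FOXD3 of glia none. CD68, a lysosomal protein used as a macrophage marker, had 580, at 0.148 per 10000 in cluster 7 and below 0.04 in all other clusters. NOTCH3, a pericyte marker, had 10356, at most 1.69 per 10000 in cluster 7, with 0.79 in cluster 13 and 0.637 in the satellite cells of cluster 8 next. The other markers of pericytes and smooth muscle were scarce, with 102 UMIs for MCAM and 192 for MYH11. The part of cells with these markers, or of muscle cells, in the levels of cluster 7 was not tested.

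CD63 was by far the most abundant tetraspanin transcript. It had 569111 UMIs, or 19.97 per 10000 in replicate 1 and 20.19 in replicate 2, which placed it 94th among all genes, and 96.9% of the 19096 cells had at least 1 of its UMIs. CD81 came next with 122090 UMIs, at 4.31 ± 0.236 per 10000 (SD, n = 2). CD9 stood at 1.33 ± 0.0521, CD82 at 1.31 ± 0.0151, TSPAN3 at 1.17 ± 0.0583 and CD151 at 0.954 ± 0.0157. TSPAN9, at 0.517 ± 0.013, and TSPAN4, at 0.287 ± 0.00648, were the scarcest of the 8. The kit counts the 3′ ends of transcripts, so no adjustment for transcript length was made, and the order is one of captured UMIs.

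Of the 25 further members of the family that were looked up, 23 were in the feature list under their symbols and 20 had a UMI. TSPAN6 was as abundant as CD9, with 38029 UMIs and 1.385 and 1.296 per 10000 in the 2 libraries. TSPAN17, a tetraspanin that escorts the protease ADAM10, had 18989 UMIs and TSPAN5, of the same subgroup, had 6925. The leukocyte tetraspanins CD37 and CD53 had 1 UMI each. No UMI was counted for TSPAN8, TSPAN10 or PRPH2, and 3 UMIs over the series are the limit that a count of 0 allows.

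**Figure D1:**
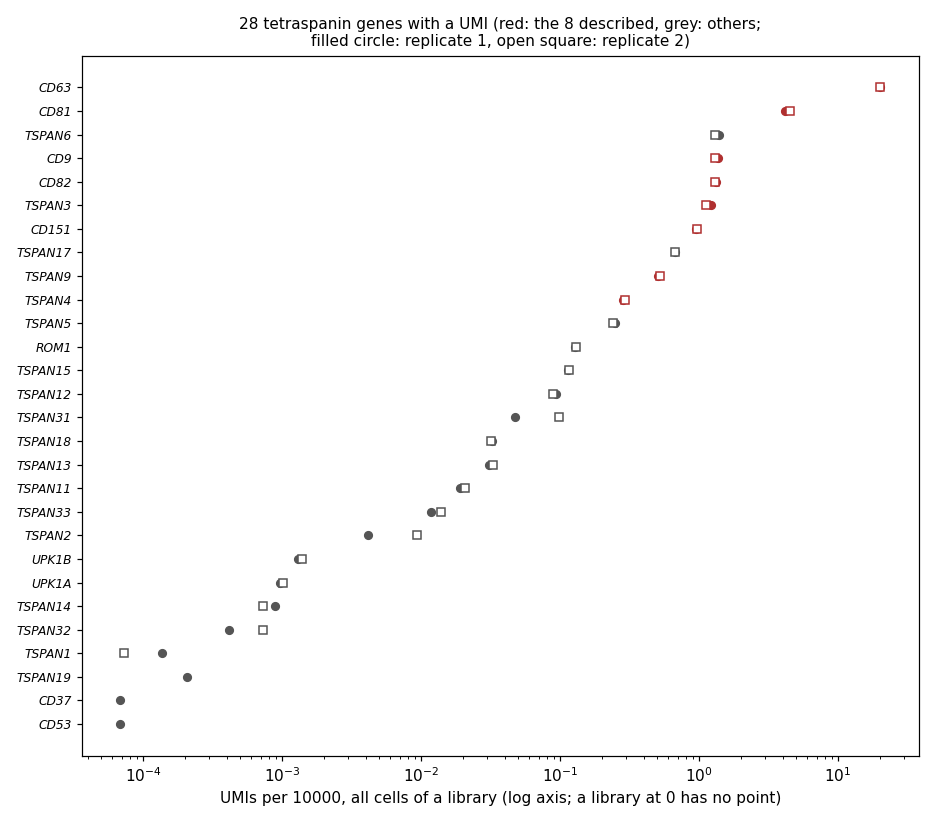
Level of each of the 28 tetraspanin genes with a UMI, in UMIs per 10000 of a library on a log axis, with a filled circle for replicate 1 and an open square for replicate 2. CD63 lies at 19.97 and 20.19, and the points of most genes above 0.1 nearly coincide between libraries, while those of TSPAN31 lie apart at 0.0471 and 0.0981.

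The 8 genes fell into a pair with steep differences over the deeper clusters and the others with smaller ones. Between the highest and the lowest deeper cluster, TSPAN9 differed 20.7-fold and CD82 14.8-fold, against 1.59-fold for TSPAN3, 1.91-fold for TSPAN4, 2.21-fold for CD151, 2.23-fold for CD9, 2.42-fold for CD81 and 2.66-fold for CD63. Each cluster was also set against all other cells, and a gene was counted as higher or lower where it differed at least 1.5-fold in the same direction in both libraries. Of the 120 pairs of a member and a cluster, 15 were higher and 17 lower by this rule. Over all genes with at least 1 UMI per 10000 in the cluster or in the other cells, the background was 8.49% of 27888 pairs higher and 10.2% lower, and with no level minimum it was 6.96% of 252240 pairs higher and 21.8% lower. Of the 88 member pairs that reached the same level minimum, 14 (15.9%) were higher and 12 (13.6%) lower. TSPAN4 reached it in no cluster and TSPAN9 in 5 clusters. The members were selected on these levels, so nothing is read from the excess over the background. CD82 and TSPAN9 supplied 20 of the 32 differences, and TSPAN3 supplied none. With totals scaled by TMM factors the lower ones were 19, with TSPAN3 lower in cluster 7 and CD81 in cluster 15.

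**Figure D2:**
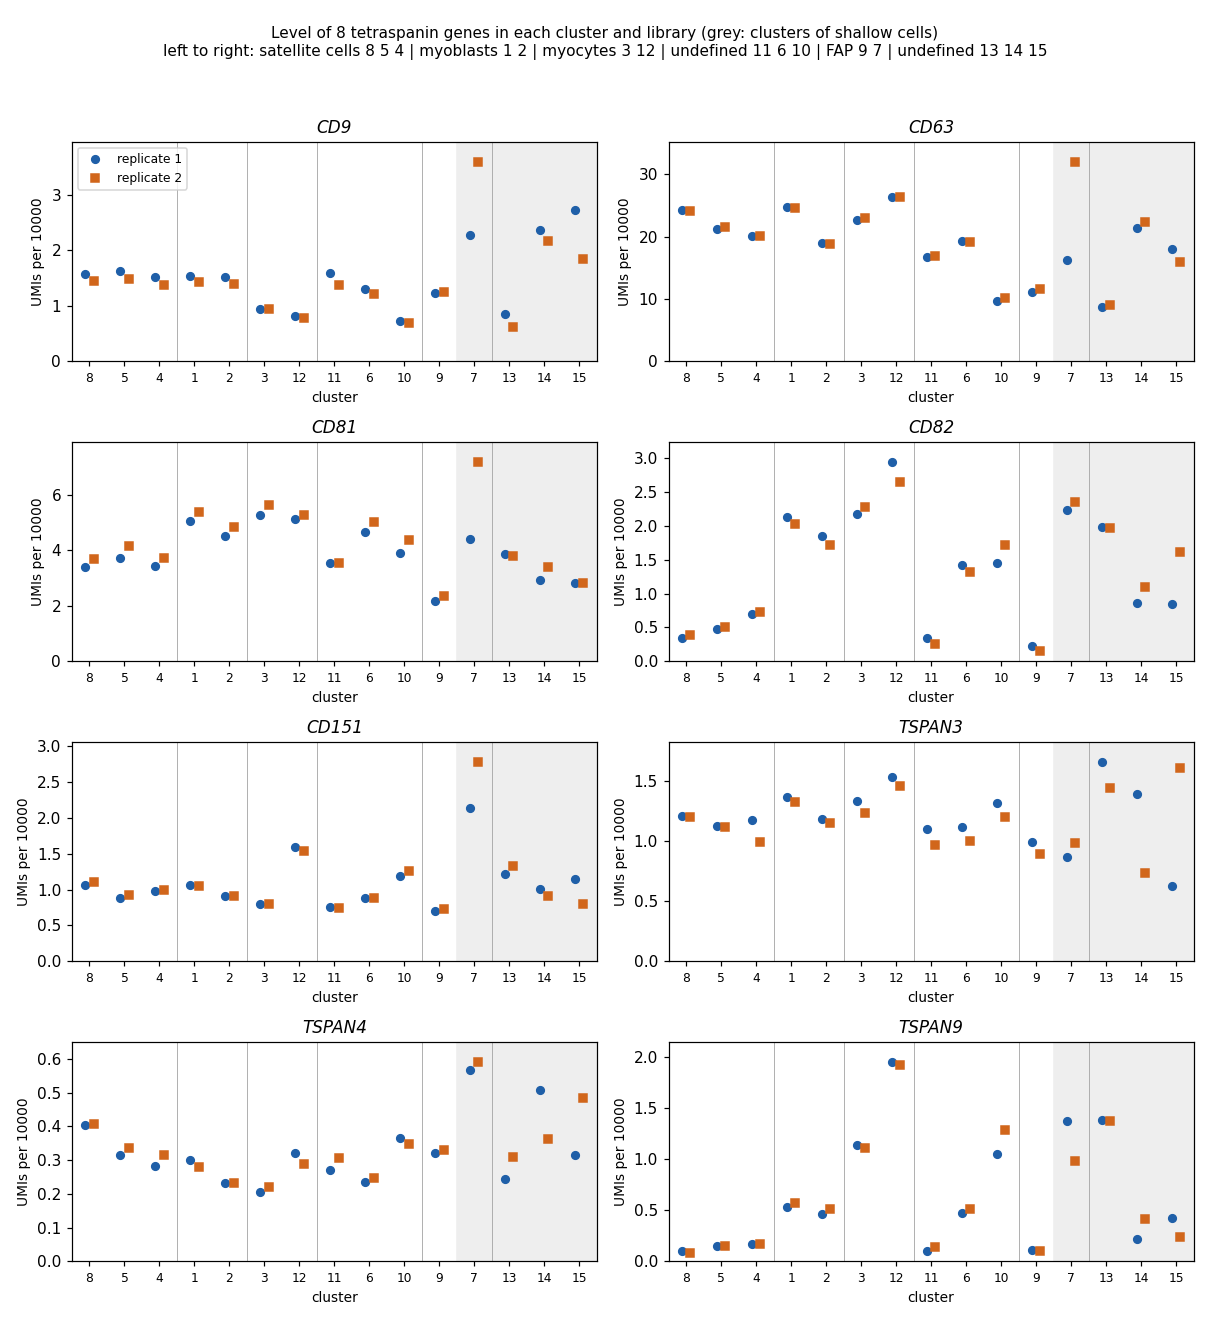
Level of each of the 8 genes, in UMIs per 10000, in each of the 15 clusters on a linear axis from 0, with a circle for replicate 1 and a square for replicate 2 and with the clusters of shallow cells on grey. CD82 and TSPAN9 are low in clusters 8, 5, 4, 11 and 9 and high in clusters 3 and 12, and the libraries lie apart in cluster 7 for CD63, CD9 and CD81.

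CD82, also known as KAI1, is a tetraspanin that binds integrins and restrains cell movement. Of the deeper clusters it was highest in the cluster 12 myocytes, at 2.946 per 10000 in replicate 1 and 2.649 in replicate 2, and then in the cluster 3 myocytes at 2.17 and 2.286. The myoblasts of cluster 1 had 2.08 ± 0.069 and those of cluster 2 had 1.78 ± 0.0972. The 3 satellite cell clusters lay far below them, with 0.715 ± 0.0282 in cluster 4, 0.486 ± 0.0196 in cluster 5 and 0.3409 and 0.384 in the 2 libraries of cluster 8. In neither library did a satellite cell cluster reach a myoblast or myocyte cluster. Among the undefined deeper clusters, cluster 10 had 1.59 ± 0.194, cluster 6 had 1.37 ± 0.079 and cluster 11 had 0.297 ± 0.0608. The lowest level was in the FAP of cluster 9, at 0.2268 and 0.1576. Over the 11 deeper clusters in order of level (12, 3, 1, 2, 10, 6, 4, 5, 8, 11, 9), 1 of the 10 neighbouring pairs overlapped between libraries, that of clusters 2 and 10.

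TSPAN9, best known from platelets, had nearly the same low clusters and a steeper rise in the myocytes. In cluster 12 it stood at 1.948 and 1.924 per 10000, and the next cluster, cluster 13, had 1.378 and 1.375. Cluster 10 had 1.048 and 1.289 and cluster 3 had 1.134 and 1.106, so that these neighbours overlapped. The myoblasts of clusters 1 and 2 had 0.552 ± 0.0209 and 0.489 ± 0.0328, and the undefined cluster 6 had 0.493 ± 0.027. The satellite cell clusters 4, 5 and 8 had 0.171 ± 0.00131, 0.152 ± 0.00207 and 0.0943 ± 0.0172, beside 0.12 ± 0.0321 in cluster 11 and 0.108 ± 0.0114 in the FAP of cluster 9. Clusters 11, 9 and 8 could not all be put in order, since their libraries overlapped, though cluster 9 was above cluster 8 within each library. Without likely doublets TSPAN9 in cluster 9 was 0.0614 ± 0.00161, below the 0.0937 ± 0.015 of cluster 8 and the 0.116 ± 0.0311 of cluster 11 in both libraries, so that cluster 9 was then the lowest.

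The same 5 deeper clusters, 4, 5, 8, 9 and 11, were thus the low ones for both genes, and the same 6, clusters 1, 2, 3, 6, 10 and 12, were the higher ones. On the log2 scale the levels of CD82 and TSPAN9 over the 11 deeper clusters had a Pearson correlation of 0.92, which is a description over clusters that share their 2 libraries. Within single clusters the 2 genes hardly covaried from cell to cell at equal depth, with correlations between -0.04 and 0.14, as is usual for sparse counts and no finding. CD81 followed the same division less steeply, with a correlation with CD82 of 0.90. CD9 had a correlation of -0.81 with TSPAN9 and of -0.53 with CD82, but it did not follow the division. Its 1.491 in cluster 1 and 1.454 in cluster 2 were close to the 1.491 of cluster 11 and the 1.447 of cluster 4. Over all 15 clusters its correlation with TSPAN9 was -0.42.

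The study drew paths from the satellite cells of cluster 8, 1 of which led to myocytes and the other to the cluster 2 myoblasts. The direct comparisons of clusters along these paths place these differences. Between the cluster 1 myoblasts and the cluster 8 satellite cells, CD82 was 5.76-fold and TSPAN9 5.89-fold higher in the myoblasts, in both libraries, where 5.72% of the 1677 genes at 1 UMI per 10000 or more were higher and 7.16% lower. TSPAN9 lay below that minimum in these clusters, and of the 7242 genes at 0.1 or more 4.71% were higher. CD81 was 1.47-fold higher there, and CD9, CD63 and CD151 differed by at most 1.03-fold. Between the myoblasts of cluster 2 and the satellite cells of cluster 4, both of which the study described as proliferating, CD82 was 2.49-fold and TSPAN9 2.86-fold higher in cluster 2, against a background of 2.84% higher and 4.91% lower, or 2.81% higher at the minimum of 0.1 that TSPAN9 reached. Between the undefined clusters 6 and 11, which are not on those paths, the differences were 4.65-fold and 4.17-fold, against 3.03% higher and 2.97% lower, or 2.93% higher at the minimum of 0.1. In each of these 3 comparisons CD82 and TSPAN9 were the members past 1.5-fold, and no other was. Between satellite cell clusters on the path to cluster 2 no member passed the rule. CD82 was 1.34-fold and TSPAN9 1.63-fold higher in cluster 5 than in cluster 8, and 1.47-fold and 1.12-fold higher in cluster 4 than in cluster 5. Of genes at 1 UMI per 10000 or more 5.14% were higher in each, and 2.66% and 0.405% lower. CD82 and TSPAN9 both lay below that minimum in clusters 4, 5 and 8, so this background is not matched to them in level.

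Later on the path to myocytes CD9 and CD151 also passed the rule. From cluster 1 to the cluster 3 myocytes TSPAN9 was 2.03-fold higher and CD9 was 1.58-fold lower, at 0.9377 and 0.9478 against 1.544 and 1.438 per 10000, where 5.87% of genes were higher and 4.87% lower. CD82 was almost level there, at 1.07-fold. From cluster 3 to cluster 12 CD151 was 1.96-fold higher and TSPAN9 1.73-fold, against 8.9% of genes higher and 6.43% lower, and CD82 was 1.25-fold higher. CD81 and CD63 stayed within 1.15-fold between clusters 12 and 3.

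**Figure D3:**
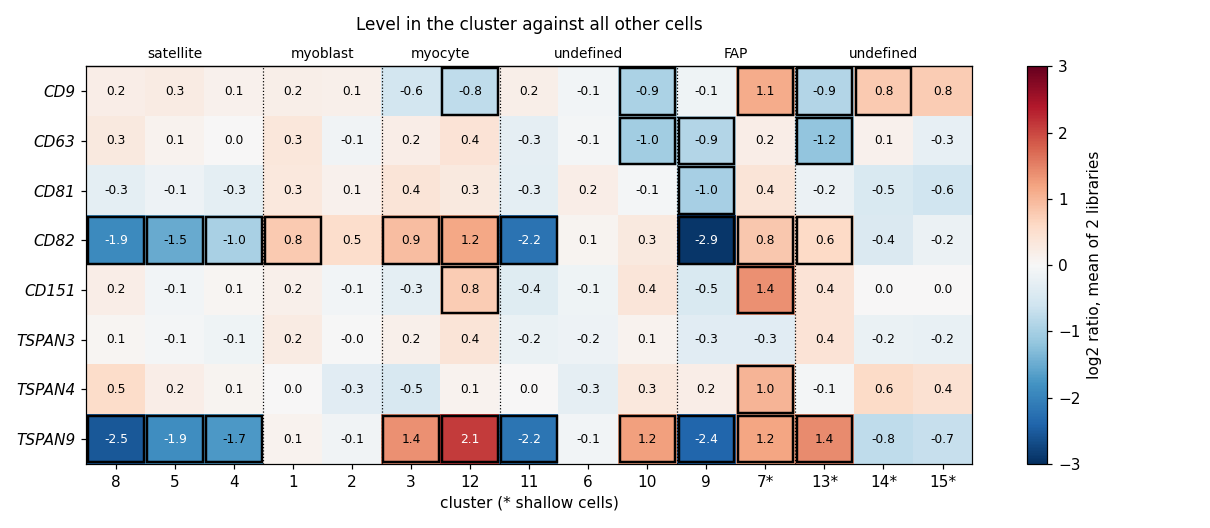
Log2 ratio of the level in each cluster to that in all other cells, mean of 2 libraries, for the 8 genes (rows) and 15 clusters (columns, an asterisk marks shallow cells), with a black frame where both libraries passed 1.5-fold in the same direction. CD82 and TSPAN9 hold 20 of the 32 framed cells and TSPAN3 holds none.

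MYOD1, the transcription factor that commits cells to muscle, divided the deeper clusters in the same way. Its levels lay between 0.571 and 2.71 per 10000 in clusters 4, 5, 8, 9 and 11. They lay between 3.96 and 6.72 in the other 6. The study's other myoblast markers, DES and MYF5, were unlike each other. DES lay between 0.847 and 1.27 in the same low clusters and between 3.93 and 22.3 in the others. It was highest in cluster 12. MYF5 did not follow the division, at 1.565 in cluster 8, 1.548 in cluster 1 and 1.24 in cluster 5. It was 0.7021 in cluster 2, 0.5743 in cluster 12 and 0.1305 in cluster 9. Over the 11 deeper clusters the correlation of log2 levels with MYOD1 was 0.92 for CD82, 0.87 for CD81 and 0.79 for TSPAN9, and -0.63 for TSPAN4. MYOD1 ranked 35th of 2704 genes by likeness to CD82 and 234th by likeness to TSPAN9, so that many genes had a more similar pattern. Cluster 12 went against a plain parallel: its MYOD1 level of 3.96 ± 0.187 was below the 6.35 ± 0.244 of cluster 3, while CD82 and TSPAN9 were at their highest there. Cluster 7 was another exception, with MYOD1 at 2.46 ± 0.323 but CD82 at 2.29 ± 0.0875.

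**Figure D4:**
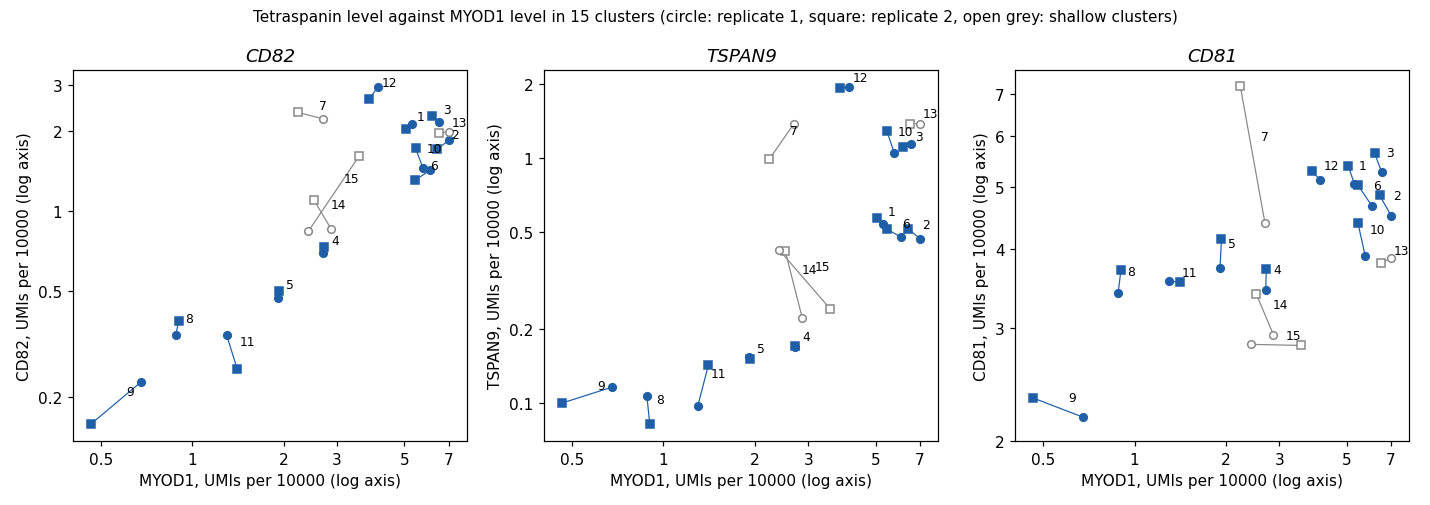
Levels of CD82, TSPAN9 and CD81 against that of MYOD1 in each cluster, in UMIs per 10000 on log axes, with a circle for replicate 1 joined to a square for replicate 2 and with the shallow clusters open and grey. Clusters 9, 8, 11, 5 and 4 lie at the lower left for CD82 and TSPAN9, and cluster 12 lies above clusters with more MYOD1.

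The same relation was then looked for inside clusters, a comparison chosen after the levels had been seen. Cells with at least 1 MYOD1 UMI at an equal depth of 2000 UMIs were set against those without, using the rule of 1.5-fold in both libraries. A cell without one at that depth can still hold MYOD1. Before thinning, 76.6% of cluster 4 cells, 67.2% of cluster 5 cells and 47.1% of cluster 8 cells had a MYOD1 UMI. In the satellite cells of cluster 4, 621 cells with MYOD1 had 1.7-fold more CD82 and 1.82-fold more TSPAN9 than 1147 cells without. Of 7323 genes there, 0.464% were higher and 0.178% lower by this rule. The median depths were 19265 and 18530 UMIs. TSPAN9 was also 1.85-fold higher in such cells of cluster 5 and 1.68-fold higher in those of cluster 8, where the backgrounds were 0.207% and 0.742%. CD82 was 1.36-fold higher in cluster 5 and 1.55-fold in cluster 8, short of the rule in both libraries of cluster 5 and in 1 of cluster 8. In cluster 10 CD82 was 1.53-fold higher, against a background of 0.454% higher and 0.765% lower. TSPAN9 was 1.59-fold higher there, short of the rule in 1 library. In cluster 11, at 0.281% higher and 0.187% lower, no member passed the rule. In clusters 1, 2, 3, 6 and 12 no member passed the rule. In clusters 1, 2, 3 and 6 hardly any gene did, with shares higher of 0.0142%, 0.0138%, 0.0145% and 0%. In cluster 12 the share was 0.245%, above that of cluster 5. CD82 was 1.03-fold and TSPAN9 0.94-fold there, so that no relation was seen. Before thinning, between 94% and 99.1% of the cells of clusters 1, 2, 3, 6 and 12 had a MYOD1 UMI. Most of their cells without one at 2000 UMIs thus held MYOD1, as did most such cells of clusters 4 and 5. This limits the comparison in all of these clusters, and nothing is read from clusters 1, 2, 3 and 6. CD9 ran lower in the cells with MYOD1 of cluster 8, at 0.726-fold, which was short of the rule. In the FAP of cluster 9 the differences were 2.69-fold for CD82 and 2.74-fold for TSPAN9, against 2.3% of genes higher and 0.588% lower. These rest on 77 cells with a median of 30177 UMIs, against 22545 in the cells without. Without cells that scored as likely doublets the 36 remaining cells gave 2.27-fold and 2.47-fold.

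Doublets (droplets with 2 cells) and free RNA can add to low levels, and their part here was not tested. In cluster 9, 14.4% of cells scored as likely doublets, and without them CD82 fell there to 0.0901 per 10000 on average and its log2 ratio of cluster 12 to cluster 9 rose from 3.89 to 5.0. RNA from other cells was not measured, and myocyte genes were taken as a stand-in, though low clusters may express them. MYOG and MYH3 stood in the low clusters 4, 5, 8 and 11 at between 5.08% and 7% of their levels over all cells. MYMK stood in the same clusters at between 2.4% and 5.57%. CD82 stood there at between 22.7% and 54.7% of its own and TSPAN9 at between 18.3% and 33%, all above the values of these myocyte genes. In cluster 9 the values lay closer together, at 14.7% for CD82 and 20.9% for TSPAN9 beside 12.3% for MYOG, 12.1% for MYH3 and 6.67% for MYMK. Without likely doublets they were 6.82% and 11.8% beside 4.57%, 4.63% and 3.85%. CD82 in the FAP was thus nearer to these myocyte genes than in clusters 4, 5, 8 and 11, though above each of them. How much of its level is the cells' own was not tested.

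Shares of cells were compared at equal depth. With every cell thinned to 2000 UMIs, which kept 17198 cells and left out 1898, CD82 was found in 44.3% of cluster 12 cells (95% exact binomial interval 40.4% to 48.3%) and in 3.33% of cluster 9 cells (2.35% to 4.59%). In the satellite cell clusters 8, 5 and 4 the shares were 7.33%, 9.87% and 11%. Without thinning, 97.4% of cluster 12 cells and 24.8% of cluster 9 cells had a CD82 UMI, at median depths of 19113 and 23011. TSPAN9 was found in 30.1% of thinned cluster 12 cells (26.6% to 33.9%) and in 1.85% of cluster 8 cells (1.18% to 2.77%), or 93.9% and 11% unthinned. These intervals cover counting error only.

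**Figure D5:**
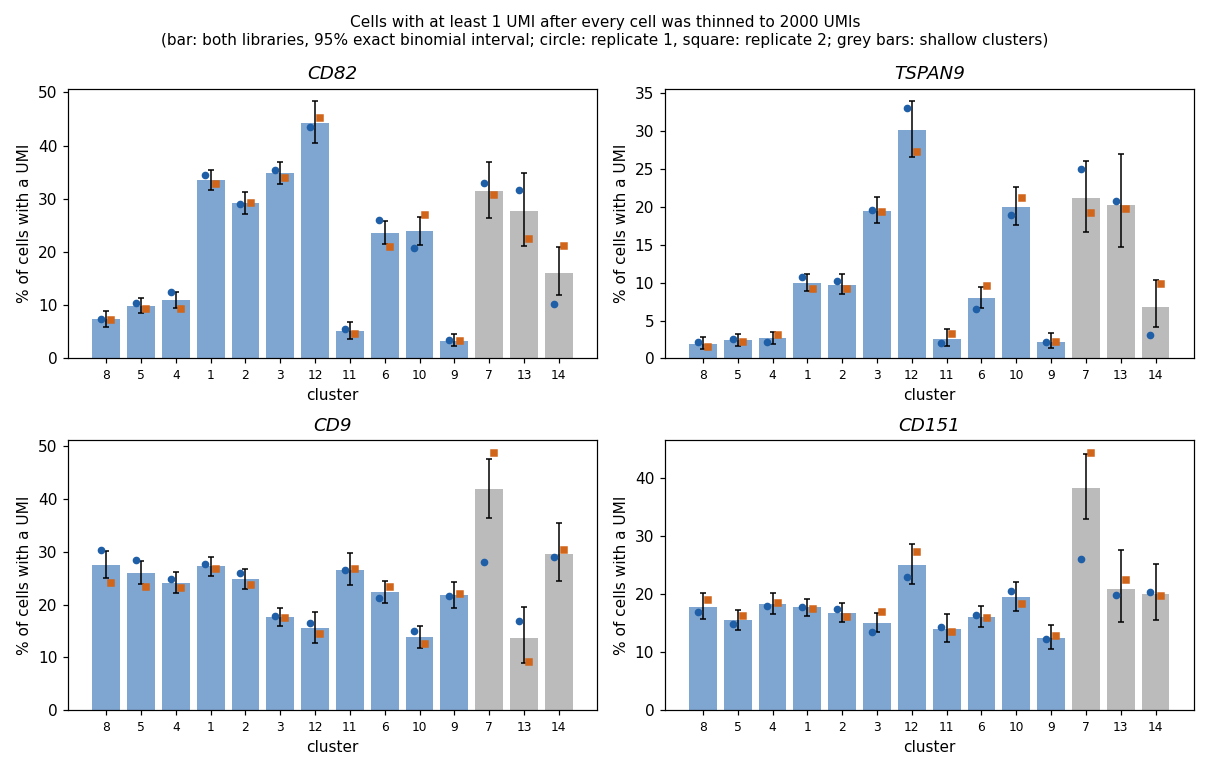
Percent of cells with at least 1 UMI of CD82, TSPAN9, CD9 or CD151 after every cell was thinned to 2000 UMIs, by cluster, with bars for both libraries together, 95% exact binomial intervals, a circle for replicate 1 and a square for replicate 2, and grey bars for shallow clusters; no cell of cluster 15 was that deep. CD82 runs from 3.33% in cluster 9 to 44.3% in cluster 12, whereas CD9 lies between 13.6% and 29.6% outside cluster 7.

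CD9 and CD81 are close relatives that bind the same immunoglobulin superfamily partners. CD9 was even over most deeper clusters, from 1.56 ± 0.103 in the satellite cells of cluster 5 to 1.23 ± 0.00958 in the FAP of cluster 9. In that order 6 of its 10 neighbouring pairs overlapped across libraries, and compared within each library 3 of them reversed. It was low in 3 of them, with 0.943 ± 0.00717 in cluster 3, 0.796 ± 0.0338 in cluster 12 and 0.702 ± 0.0238 in the undefined cluster 10. Both myocyte clusters were thus below every satellite cell and myoblast cluster in both libraries. CD81 went the other way, with 5.46 ± 0.266 in cluster 3, 5.22 ± 0.229 in cluster 1 and 5.21 ± 0.114 in cluster 12, which overlapped from one neighbour to the next. The satellite cell clusters 8, 4 and 5 had 3.55 ± 0.21, 3.58 ± 0.193 and 3.94 ± 0.285. The FAP of cluster 9 had 2.178 and 2.334, below all other clusters in both libraries. CD81 was also higher in replicate 2 than in replicate 1 in 10 of the 11 deeper clusters. Such a shift makes clusters overlap across libraries, and compared within each library the order reversed in 2 of its 10 neighbouring pairs.

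CD63 was abundant everywhere and had the clearest order. Its levels ran from 26.31 and 26.33 per 10000 in the cluster 12 myocytes through 24.7 ± 0.146 in cluster 1, 24.2 ± 0.074 in cluster 8 and 22.8 ± 0.222 in cluster 3 down to 11.05 and 11.6 in cluster 9 and 9.674 and 10.14 in cluster 10. None of the 10 neighbouring pairs of deeper clusters overlapped. Even in the lowest deeper clusters most cells had it, with 88.4% of cluster 9 cells and 82.1% of cluster 10 cells at 2000 UMIs, against 99% in cluster 12. The satellite cells of cluster 8 and the myoblasts of cluster 1 differed by 1.02-fold, so that the step marked by CD82 and TSPAN9 was not seen in CD63.

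CD151 binds the laminin-binding integrins. It was highest of the deeper clusters in cluster 12, at 1.6 and 1.542, followed by cluster 10 at 1.23 ± 0.0556 and cluster 8 at 1.09 ± 0.0238, and it was lowest in cluster 9 at 0.712 ± 0.0228. The other myocyte cluster, cluster 3, was among the lowest at 0.8009 and 0.8011. TSPAN3 was the most even of the 8, from 1.53 and 1.46 in cluster 12 to 0.9931 and 0.8947 in cluster 9. In 7 of its 10 neighbouring pairs the libraries overlapped, and it was higher in replicate 1 in all 11 deeper clusters. Compared within each library, the order reversed in 3 of these 10 pairs. TSPAN4, known from migrasomes, the vesicles that moving cells leave behind, was highest in the satellite cells of cluster 8 at 0.4055 and 0.4061 and lowest in the cluster 3 myocytes at 0.2044 and 0.2198. The clusters between them overlapped in 5 of 10 neighbouring pairs.

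In the shallow clusters the libraries were less alike. In cluster 7, which the study called FAP, CD151 stood at 2.141 and 2.781, TSPAN4 at 0.5688 and 0.5906, CD82 at 2.231 and 2.354 and TSPAN9 at 1.372 and 0.9844, all above the 1.5-fold rule against other cells. The other FAP cluster, cluster 9, was the lowest or among the lowest for CD82, CD81, CD63, CD151 and TSPAN9. Between clusters 9 and 7, CD9, CD81, CD82, CD151, TSPAN4 and TSPAN9 were lower in cluster 9 by the 1.5-fold rule, in a comparison in which 28.7% of the 2471 genes at 1 UMI per 10000 or more, a level that TSPAN4 did not reach, were higher and 35.7% lower. CD63 in cluster 7 was 16.29 in replicate 1 and 32.02 in replicate 2. The gap lay in its cells of at least 2000 UMIs, 100 in replicate 1 with a level of 19.4 and 208 in replicate 2 with 47.6, whereas the smaller cells had 14.92 and 15.97. CD9, at 2.275 and 3.601, and CD81, at 4.394 and 7.186, differed between libraries in the same direction. Any value of cluster 7 for these 3 genes therefore depends on the library. With totals scaled by TMM factors, none of the 5 genes counted as higher in cluster 7, CD9 among them, passed the rule, nor did CD82 in cluster 13, and the count over all clusters went from 15 to 9. Cluster 13 had CD82 at 1.98 ± 0.015 and TSPAN9 at 1.38 ± 0.00227, near the myoblast and myocyte clusters, and the least CD63, at 8.88 ± 0.248. Cluster 14 had more CD9, at 2.377 and 2.172, than any deeper cluster, and cluster 15, with a median of 647 UMIs per cell, had between 7 and 368 UMIs of each gene.

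Genes with the most similar pattern over the 15 clusters were named for each member, as a description over clusters that share libraries and depth. Over the deeper clusters alone most of the 3 closest genes were others. Only PTGIS for CD81, MFSD10 for CD82 and ENSBTAG00000009362 for CD151 were in both lists. HNRNPF with CD9 and JMJD1C with CD151 had correlations of 0.68 over the deeper clusters, and LFNG with TSPAN4 had 0.65. CD63 was closest to TSPAN6 at a Pearson correlation of 0.86, ANXA2, an annexin found in vesicles, and NDUFA4. CD82 was closest to MFSD10 at 0.98, the actin-binding NEXN at 0.96 and CBLN4 at 0.96, and TSPAN9 to BLCAP, CSK and FNDC5 at between 0.95 and 0.96. For CD81 they were TLN2, a talin that links integrins to actin, at 0.94, the adhesion molecule NCAM1 at 0.91 and PTGIS at 0.88. CD9 was closest to ATP6AP2 at 0.90, SRSF11 and HNRNPF, CD151 to DST at 0.90, JMJD1C and ENSBTAG00000009362, and TSPAN3 to WIPI2 at 0.92, SPATS2L and MYL9. TSPAN4 had the weakest matches, CHID1 at 0.82, SLC39A1 and LFNG. CHID1 is also the gene next to TSPAN4 on chromosome 29 in the ARS-UCD2.0 annotation, where POLR2L lies between TSPAN4 and CD151. The pattern of TSPAN4 had a correlation of 0.60 with that of CD151 over all 15 clusters and of 0.37 over the deeper ones. In the same annotation CD81 neighbours TSPAN32, CD82 neighbours TSPAN18 and TSPAN9 neighbours TSPAN11, all 3 of which were scarce, with 16, 910 and 563 UMIs.

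Among the further tetraspanins at 0.1 UMI per 10000 or more, TSPAN6 was highest in cluster 12 at 2.54 ± 0.266 and lowest in cluster 10 at 0.666 ± 0.0395, as CD63 was. TSPAN5 was lowest in cluster 12, at 0.0435 ± 0.0051, and highest in cluster 5, at 0.375 ± 0.0519. TSPAN12, a partner of the Frizzled receptor FZD4, was highest in the FAP of cluster 9, at 0.459 ± 0.0367, and lowest in cluster 3, at 0.0252 ± 0.00133, the reverse of CD81. TSPAN15 was lowest in cluster 9, at 0.0174 ± 0.00671. TSPAN17 varied 1.7-fold and ROM1 2.27-fold between deeper clusters. Over all 23 listed genes, 21 of 345 pairs of gene and cluster (6.09%) were higher and 81 (23.5%) lower by the 1.5-fold rule, beside 6.96% and 21.8% of all genes with no level minimum. The 345 pairs include those of TSPAN8, TSPAN10 and PRPH2, which had no UMI and could not be counted. The background holds only genes with a UMI, so the percentages of the list are somewhat low beside it.

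Of 20 partner genes, in 300 pairs with clusters, 37 (12.3%) were higher and 50 (16.7%) lower. The background was 6.96% higher and 21.8% lower over all genes with no level minimum, and 8.49% and 10.2% at 1 UMI per 10000 or more. Of the 20 genes 17 reached 0.1 UMI per 10000 in a cluster, so neither background was matched to them in level. The summed level of the 20 genes was lowest of all clusters in the cluster 12 myocytes, at 20.4 ± 0.522 per 10000, where CD82, TSPAN9, CD151 and CD63 were at their highest of the deeper clusters, and highest of the deeper clusters in cluster 8, at 37.1 ± 1.27. The sum was led by BSG, with ITGB1, CD44 and ITGA7 next. ITGB1, the integrin beta-1 chain, ran over the deeper clusters from 2.5 ± 0.0777 in cluster 12 to 7.2 ± 0.292 in cluster 9, and was higher still in the shallow cluster 7, at 11.7. The summed partner level was also highest there, at 74.7 ± 8.49. ITGA7, the laminin receptor chain of muscle, was highest of the deeper clusters in cluster 12, at 4.05 ± 0.0432, and lowest in cluster 9, at 0.409 ± 0.0411. It too was higher still in cluster 7, at 10.3. For 20 late endosome and lysosome genes, led by CTSD, PSAP, LAMP1 and ATP6V0D1, 21 pairs (7%) were higher and 26 (8.67%) lower. For 20 genes of vesicle formation, led by ANXA2, CHMP2A, CHMP4B and TSG101, 14 (4.67%) were higher and 26 (8.67%) lower. Both lists are to be read beside the same backgrounds, and in each 18 of the 20 genes reached 0.1 UMI per 10000. The summed level of the vesicle genes had a correlation with CD63 of 0.91 over the deeper clusters, a sum in which ANXA2 alone, at 1034342 UMIs, outweighs the rest, and that of the lysosome genes had 0.61.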

How the data were processed

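Per the labels and the study's methods, the 2 libraries were made with the Chromium 3′ kit v3 and read with Cell Ranger 3.0.2 against ARS-UCD1.2. The authors deposited 1 matrix of UMI counts over both libraries, combined at equal mapped depth, and a table of cluster averages, log2 fold changes and p-values of their own comparisons. Only the averages were used from that table, in which the authors give UMIs per cell of a cluster scaled by cell size. The fold changes and p-values were not used. Which library a cell came from was read from its barcode's suffix. The deposited averages are whole UMI sums after conversion (largest distance from a whole number 0.000107), from which each of the 19096 cells was assigned to its cluster in 30 rounds of deduction. The recomputed sums differed from the deposited averages in 0 of 252240 pairs of gene and cluster.

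Levels were UMIs per 10000 per library and cluster, with a pseudocount of 0.1 for correlations. Differences of at least 1.5-fold in both libraries were counted, among genes at 1 UMI per 10000 or more (0.1 within clusters split by MYOD1). No p-value was computed. Cells were thinned to 2000 UMIs for shares and cell correlations. Genes most like a member were the 3 with the highest Pearson correlation among the 2704 genes at 1 UMI per 10000 in a cluster. Of other lists, the 4 genes with the highest levels were named, and of the family those at 0.1 or more in a cluster. Doublets were scored with Scrublet in scanpy 1.11.5. Its automatic threshold called 0 and 1 cells, so instead, as a choice made after that was seen, the cells with the highest scores were treated as likely doublets up to the expected rate of 8% (755 and 642 cells). Cells stayed in unless stated. TMM factors came from edgeR 4.0.16 in R 4.3.3. The counting rule and the likeness measure were tested on simulated data. The members and the gene lists were chosen with earlier results of these data known. Gene order came from the ARS-UCD2.0 annotation, another assembly than that of the files, so no coordinates are given.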

Additional observations from a re-analysis of the deposited data

How the results depend on the processing

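With TMM-scaled totals the log2 ratio between the highest and the lowest deeper cluster was 1.30 for CD9 (1.16 as reported), 1.70 for CD63 (1.41), 1.41 for CD81 (1.27), 1.35 for CD151 (1.14), 0.87 for TSPAN3 (0.67) and 0.85 for TSPAN4 (0.94), and 9 pairs in place of 15 were higher, the 5 of cluster 7 and CD82 in cluster 13 being lost, while 19 in place of 17 were lower, with TSPAN3 in cluster 7 and CD81 in cluster 15 added. Without the 87 ribosomal protein genes in the totals it was 1.07 for CD9, 1.30 for CD63 and 1.32 for CD81. As a mean of the shares of single cells it was 1.52 for CD63, 1.32 for CD81 and 4.28 for CD82 (3.89). Without likely doublets it was 1.42 for CD81 and 5.0 for CD82. With cells given to clusters by their profile without the 8 genes, which kept 85.4% of cells in place, it was 1.31 for CD81 and 4.06 for TSPAN9 (4.37). Over all 15 clusters it was 2.03 for CD9, 1.57 for CD63, 1.32 for CD81, 1.78 for CD151, 0.74 for TSPAN3 and 1.45 for TSPAN4. Leaving out either replicate gave 1.12 to 1.19 for CD9, 1.38 to 1.44 for CD63, 1.27 to 1.28 for CD81, 3.70 to 4.07 for CD82, 1.08 to 1.2 for CD151, 0.62 to 0.71 for TSPAN3, 0.89 to 0.99 for TSPAN4 and 4.19 to 4.55 for TSPAN9, with 18 pairs higher and 20 to 22 lower. The background was 6.06% to 8.88% higher and 10.2% to 12.3% lower under the settings that kept the level minimum. Removal of likely doublets lowered CD82 in cluster 9, and the cause of these shifts was not tested. No paired analysis was possible because both libraries belong to 1 group and no result comes from a test (each fold was taken within a library). No mitochondrially encoded gene was matched by name, so only ribosomal protein genes were left out. Depth limits the shallow clusters most: cluster 15 has no cell of 2000 UMIs.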

Other observations

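TSPAN31, a tetraspanin outside the 8, was the family member above 0.01 UMIs per 10000 whose libraries lay farthest apart. It stood at 0.0471 per 10000 in replicate 1 and 0.0981 in replicate 2 and was higher in replicate 2 in 14 of the 15 clusters. The libraries come from the same cells, and no cause was tested.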
